A study of Macaca mulatta with 6 samples.

Results

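The sites described here are the CCGG sites nearest to the ends of the 20 autosomes of the rhesus macaque, Macaca mulatta. They were chosen by position alone. A site belonged to the set if its position was 3000000 or lower, or if it lay at most 3000000 bp before the last site that either table lists on its chromosome. This rule gave 128552 sites, out of 1357052 autosomal sites and 1406954 sites listed in the series as a whole. Each chromosome had a low-position end and a high-position end, so there were 40 ends, with between 642 and 5111 sites each and a median of 3018.5. The other 1228500 autosomal sites are called the rest.

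Chromosome ends in primates carry telomere repeats, and the stretches next to them, the subtelomeres, are rich in GC, in CpG and in segmental copies. DNA methylation in mammals falls mostly on CpG, and CpG-dense stretches such as CpG islands are mostly free of it while scattered CpGs are mostly methylated. Meiotic crossovers in males are concentrated towards chromosome ends in primates, and the male germline sets its own methylation pattern before sperm are formed. A CCGG site holds a CpG at its centre, so its density follows GC and CpG content.

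The study profiled 2 cell types with HMST-Seq, which sequences tags beside CCGG sites cut in separate digests of the same DNA. Haploid embryonic stem cells (ESC), named parthenogenetic in the series title and thus without a paternal genome, were set beside sperm, which carry a single paternal set of chromosomes. Each cell type had 3 libraries, labelled HpaII, BGT_MspI and MspI, with 1 library per digest. HpaII is blocked by modification of the inner cytosine of CCGG and MspI tolerates methylation there, while HMST-Seq as a method uses glucosylation to shield hydroxymethylated sites from MspI. The labels give no line, passage, age, animal or pooling for either cell type. The cell types could not be checked against marker genes, since the tables name none.

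The table of each cell type holds 2 pairs of values per site and an adjusted p-value for each pair. The second value of the first pair and the first value of the second pair were identical in all 1366982 rows for haploid ESC and in all 1297392 rows for sperm. Each table thus holds 3 distinct signals for its 3 libraries, called here the first signal, the shared signal, which stands in both pairs, and the third signal. No header says which digest a signal belongs to. The first-pair contrast is log2((shared signal + 1)/(first signal + 1)), and the second-pair contrast is the same log2 ratio of the third signal over the shared signal, again with 1 added to each. Both contrasts contain the shared signal, so they are not independent. The scale is the authors' own and the depth behind a signal is unknown, so signal levels are compared within 1 table only and are not translated into a level of methylation. Contrasts of both tables are set side by side for joint calls, for correlations and in windows, where a scaling that differs between the tables could shift all differences alike. Nothing was replicated, so no test of the cell types was possible and no value has a replicate error. Spread is given over chromosomes or ends, which share the same libraries.

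Sites were packed more closely at the ends. The end margins covered 120 Mb, or 4.39% of the span of the autosomes, and held 9.47% of the autosomal sites. Their density was 1071 sites per Mb against 470 in the rest, a ratio of 2.28. The ends were denser than the rest on 20 of 20 chromosomes, with the lowest ratio, 1.50, on chromosome 2 and the highest, 3.08, on chromosome 8. Taken singly, 37 of the 40 ends were denser than the rest of their chromosome.

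The low-position ends of chromosomes 12, 2 and 7 were the exceptions and had the fewest sites. The low-position end of chromosome 12 had 642 sites, 0.52 times the density of the rest of that chromosome. The low-position end of chromosome 2 had 994 sites at a ratio of 0.84, and that of chromosome 7 had 1174 at 0.79. The ends with the most sites were the low-position end of chromosome 15 with 5111 sites, the high-position end of chromosome 20 with 4942 and the low-position end of chromosome 14 with 4940. The first site of chromosome 18 lay at 599214, so that the outer part of this end held no listed site. Unsequenced gaps and uneven mapping at chromosome ends were not tested as sources of these differences.

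Density did not peak at the very end. It was 753 sites per Mb in the outermost 0.1 Mb, 1156 between 1 and 2 Mb, 997.5 between 2 and 3 Mb and 909 between 3 and 5 Mb. Farther in it was 700 between 5 and 10 Mb and 549.5 between 10 and 20 Mb. The limit of 3 Mb therefore cuts a slope and not a step. Distance ran from the chromosome start at low-position ends and from the last listed site at high-position ends. Unlisted outer sequence can thus lower the density of low-position ends only. The first sites lay at 599214 on chromosome 18, 70143 on chromosome 11 and 51593 on chromosome 17.

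Short spacings between neighbouring sites were more frequent at ends. The median distance to the nearest site was 251 bp at ends and 489 bp in the rest. Sites more than 2000 bp from any other made up 2.30% of end sites and 12.6% of the rest. The share of sites at most 100 bp after the preceding one was 10.4% at ends and 5.62% in the rest, a ratio of 1.84. The spacings most frequent in the rest did not follow this gain. Sites 234 bp after the preceding one numbered 24.2 per 10000 at ends and 37.6 per 10000 in the rest, a ratio of 0.64. For 202 bp the ratio was 0.69, for 203 bp 0.75, for 135 bp 0.85 and for 68 bp 0.86. Such recurring spacings arise where a sequence with several CCGG sites is present in many copies. These 5 were rarer per site at ends although short spacings as a class were more frequent. The ends held 2.28 times as many sites per Mb, and per Mb all 5 spacings were more frequent at ends. For 234 bp there were 311 sites in the 120 Mb of ends and 4615 in the 2611 Mb of the rest. Choosing the 5 by their frequency in the rest favours a lower share per site at ends.

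Listing differed slightly between ends and rest. Of the end sites, 115913 (90.2%) were listed in both tables, 8440 were found only in the haploid ESC table and 4199 only in that of sperm. The share of a table's sites that the other table lacks was 6.79% for haploid ESC at ends (95% Wilson interval 6.65% to 6.93%) and 7.85% in the rest (7.80% to 7.90%). It was lower at ends on 20 of 20 chromosomes. The difference of -1.06 points was -0.22 with the rest weighted on sites within 10 kb. For sperm it was 3.50% at ends (3.39% to 3.60%) and 3.07% in the rest (3.04% to 3.11%), higher at ends on 19 of 20 chromosomes, chromosome 19 being the exception. The intervals reflect counting error alone, and sites close together share their surroundings.

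At the ends the first signal was higher in both cell types, while the shared signal was nearly level with the rest. Beside sites of the rest with as many neighbours within 10 kb, however, the log2 difference in the first signal was -0.027 in haploid ESC and 0.035 in sperm. In haploid ESC the median first signal was 20.5 at ends and 18.1 in the rest, a difference of 0.17 in the median of log2(signal + 1). It was higher at the ends of 19 of 20 chromosomes, chromosome 4 being the exception. In sperm the medians were 17.7 and 15.3, a difference of 0.20, again higher on 19 chromosomes and not on chromosome 4.

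The shared signal had medians of 17.86 at ends and 17.90 in the rest of haploid ESC, and of 16.1 and 16.4 in sperm. On the log2 scale these differ by -0.0035 and -0.026. The direction was mixed: the ends were higher on 9 chromosomes and lower on 11 in each table. The medians of the third signal were 18.7 and 18.1 in haploid ESC, a log2 difference of 0.044, with 11 of 20 chromosomes higher at ends. In sperm they were 16.8 and 16.3, a log2 difference of 0.044, with 14 of 20 higher. In the plot of signals per end, the first signal stood apart from the other two by lying mostly above 0.

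**Figure D1:**
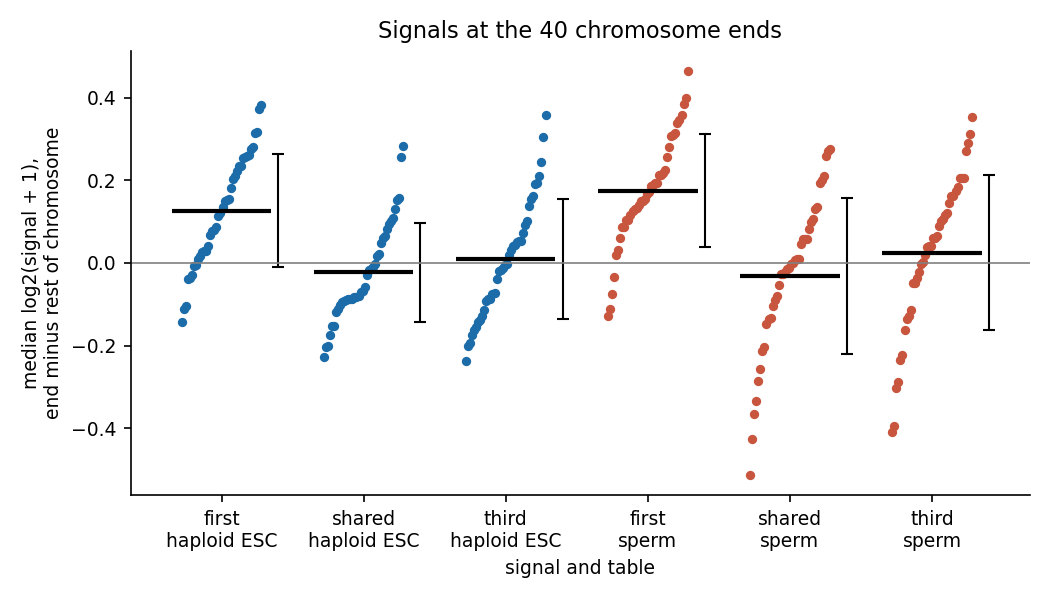
Difference between each of the 40 chromosome ends and the rest of its chromosome in the median of log2(signal + 1), for the 3 signals of each table (x axis). Dots are ends in rising order, the line is their mean and the bar beside it 1 SD over ends. The first signal was above 0 at 32 ends in haploid ESC and 36 in sperm, the shared signal at 14 and 19.

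The first-pair contrast was accordingly lower at ends. In haploid ESC its median was -0.23 over 124353 end sites and -0.02 over 1193622 sites of the rest, a difference of -0.21. The difference was negative on all 20 chromosomes, from -0.44 on chromosome 5 to -0.01 on chromosome 9, with a mean of -0.19 ± 0.12 (SD over 20 chromosomes). In sperm the median was -0.10 over 120112 end sites and 0.05 over 1134792 of the rest, a difference of -0.15. It was negative on 19 of 20 chromosomes, from -0.45 on chromosome 2 to 0.07 on chromosome 4, with a mean of -0.15 ± 0.13.

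The difference was not kept beside equally dense sites. With the rest weighted to the number of sites that end sites have within 10 kb, the difference was 0.037 in haploid ESC and 0.00095 in sperm, so it changed sign in both and was close to 0. These weighted values pool all chromosomes and average over classes of sites that differ in both directions, as the counts of close neighbours show. The weighting on 10 kb was chosen after the data were seen. A weighting on the distance to the nearest site alone gave -0.077 in haploid ESC and 0.025 in sperm.

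In haploid ESC the middle of the distribution differed more than its outer parts. The lower quartile of the first-pair contrast was -1.18 at ends and -0.999 in the rest, and the upper quartile 0.74 and 0.90. The 10th percentile was -1.997 and -1.86, and the 90th 1.63 and 1.69. In sperm both tails were shorter at ends: the 10th percentile was -2.36 at ends and -2.51 in the rest, and the 90th percentile 1.83 and 1.97.

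The second-pair contrast was slightly higher at ends. Its median was 0.058 at ends and 0.0024 in the rest of haploid ESC, a difference of 0.056, with a mean over chromosomes of 0.052 ± 0.019 (SD). In sperm it was 0.064 and -0.0095, a difference of 0.073, with a mean of 0.068 ± 0.016. The ends were higher on 20 of 20 chromosomes in each table, and 37 of the 40 single ends were higher in each. Beside the same number of sites within 10 kb the difference was 0.0020 in haploid ESC and 0.021 in sperm. It was thus close to 0 in haploid ESC, and in sperm it was smaller but kept its direction.

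Calls show the same pattern when they are split by direction. Sites are counted as called where the authors' deposited table gives a pair an adjusted p under 0.05, and the sources used here do not name the test. For the first pair the authors' deposited table for haploid ESC called 68.6% of end sites and 66.6% of the rest, with 66.8% called over all autosomal sites. The authors' deposited table for sperm called 69.2% of end sites and 69.8% of the rest, with 69.7% called over all autosomal sites. These totals are near the background and hide a shift between directions. The shares split by direction were not weighted on neighbours. With the rest weighted on sites within 10 kb, the difference in first-pair contrast was 0.037 in haploid ESC and 0.00095 in sperm. Sites called with the shared signal lower than the first made up 40.2% of end sites in the authors' deposited table for haploid ESC, against 34.1% of the rest and a background of 34.7%. Sites called with the shared signal higher made up 28.4%, against 32.6% of the rest and a background of 32.2%. The first of these shares was larger at ends on 20 of 20 chromosomes, the other smaller on 18.

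In sperm the shift was smaller. Sites called with the shared signal lower made up 37.2% of end sites in the authors' deposited table, against 34.3% of the rest and a background of 34.6%, larger at ends on 18 of 20 chromosomes. Sites called with the shared signal higher made up 32.0%, against 35.5% of the rest and a background of 35.1%, smaller at ends on 15 of 20. With adjusted p under 0.001, the authors' deposited tables called 43.7% of end sites in haploid ESC against a background of 41.4%, and 46.8% in sperm against a background of 48.3%.

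Second-pair calls were few and leaned towards calls with the third signal higher at ends. Beside equally dense sites the excess of all second-pair calls in the authors' deposited tables was -0.051 points in haploid ESC and 0.66 in sperm, against 1.12 and 1.23 unweighted. The authors' deposited table for haploid ESC called 12.1% of end sites against 11.0% of the rest, with a background of 11.1%. That of sperm called 8.97% against 7.74%, with a background of 7.86%. Calls with the third signal higher made up 8.39% of end sites in the authors' deposited table for haploid ESC, against 6.14% of the rest and a background of 6.36%. Calls with the third signal lower made up 3.76%, against 4.89% and a background of 4.78%. In the authors' deposited table of sperm the third signal was higher at 6.16% of end sites, against 3.78% of the rest and a background of 4.01%. It was lower at 2.81%, against 3.96% and a background of 3.85%. Calls with the third signal lower were a smaller share at ends on 20 of 20 chromosomes in each table. With adjusted p under 0.001, the authors' deposited tables called 1.79% of end sites in haploid ESC and 2.01% in sperm, against backgrounds of 1.33% and 1.57%.

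Most sites called in both cell types pointed the same way, at ends as in the rest. The authors' deposited tables called 24.99% of the 115913 shared end sites with the shared signal lower in both, against 20.9% of the rest and a background of 21.3%. The shared signal was called higher in both at 18.2%, against 21.1% of the rest and a background of 20.8%. Opposite calls were rare and also shifted, and none of these joint shares was weighted on neighbours. Sites lower in haploid ESC and higher in sperm made up 5.30% of shared end sites in the authors' deposited tables, against a background of 4.85%. Sites higher in haploid ESC and lower in sperm made up 3.45%, against a background of 4.19%. Such a joint call compares 2 tables that may have been scaled separately and does not show that a site differs between the cell types. Over shared end sites the first-pair contrasts of both tables were correlated with Pearson's r = 0.57 and Spearman's rho = 0.56, close to the 0.55 and 0.55 of the rest. The second-pair contrasts had an r of -0.010 at ends and -0.015 in the rest.

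The median contrast also varied with distance from the end. In haploid ESC the median first-pair contrast was -0.29 in the outermost 0.1 Mb, -0.37 from 0.1 to 0.25 Mb, -0.25 from 1 to 2 Mb and -0.16 from 2 to 3 Mb. Over all chromosomes pooled, it went on rising beyond the margin, from -0.16 between 3 and 5 Mb and -0.13 between 5 and 10 Mb to 0.06 beyond 40 Mb. In sperm it was -0.36 in the outermost 0.1 Mb, -0.25 from 0.25 to 0.5 Mb, -0.16 from 0.5 to 1 Mb and -0.07 from 1 to 2 Mb. It had reached 0.00087 between 2 and 3 Mb and was -0.01 between 3 and 5 Mb. Beyond 40 Mb it was 0.10. In sperm most of the pooled change thus lay within the outer 2 Mb, and in haploid ESC it reached into the farther classes. Short chromosomes drop out of the far classes, however. Chromosome 19, with its last site at 64156659, has none beyond 40 Mb, and its rest had the lowest median contrast in both tables, -0.41 and -0.56. The far medians thus mix distance with which chromosomes are present. Whether these courses differ between the cell types was not tested, and the classes beyond 10 Mb were chosen after the data were seen.

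**Figure D2:**
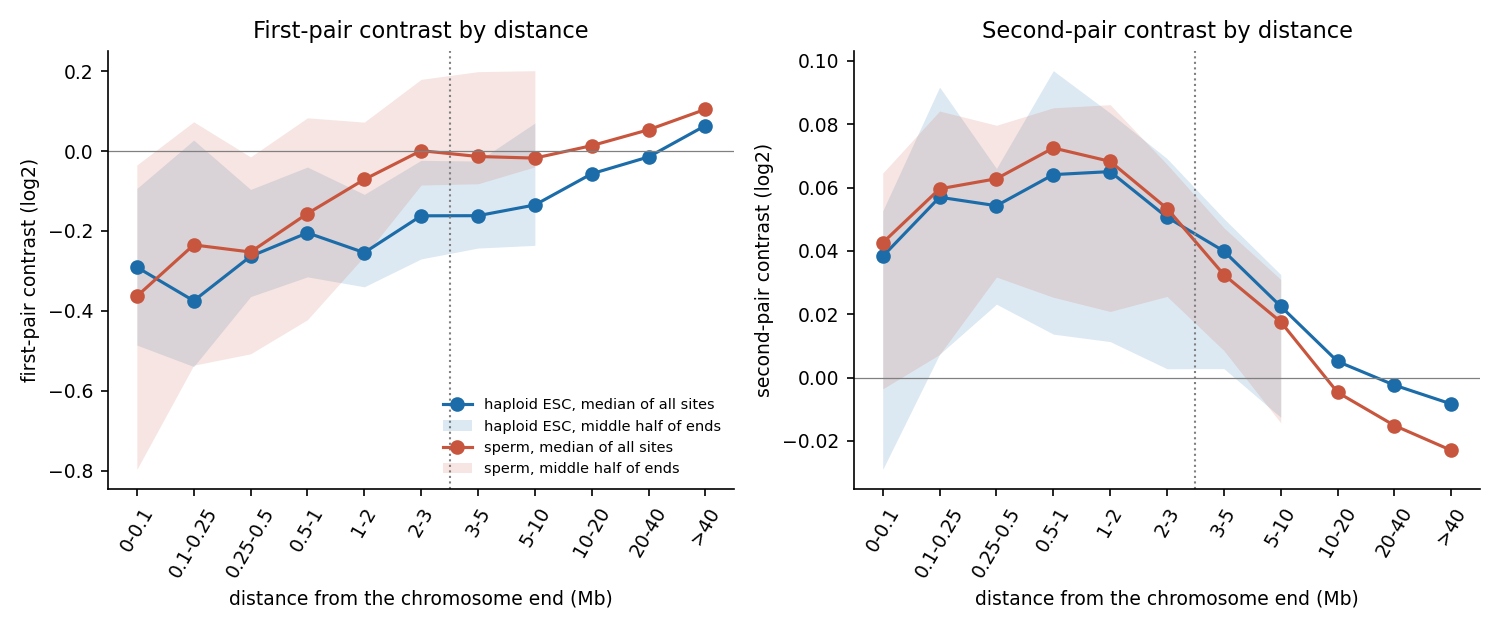
Median first-pair contrast (left) and second-pair contrast (right), both in log2, by distance from the nearer chromosome end in Mb, in haploid ESC and sperm. Lines join medians over all sites of a class, shaded bands are the interquartile range of medians over single ends, and the dotted line marks 3 Mb. In sperm the first-pair contrast runs from -0.36 in the outermost class to 0.00087 at 2 to 3 Mb.

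Pooled over all ends, the outermost sites of sperm were low also beside equally dense sites of the rest, pooled over all chromosomes. The sites compared were not matched by chromosome, so differences between chromosomes enter these values. Beside sites of the rest with as many neighbours within 10 kb, the outermost 0.1 Mb was lower by a log2 difference of -0.25 in sperm and of -0.05 in haploid ESC. From 0.1 to 0.25 Mb the differences were -0.10 and -0.09, and from 0.5 to 1 Mb -0.08 and 0.06. Between 2 and 3 Mb they were 0.11 and 0.09. The difference thus turned from negative to positive on the way inwards in both tables, from 0.25 Mb in haploid ESC and from 1 Mb in sperm. The outermost class held 3011 sites, and sites close to a chromosome end have fewer neighbours counted within 10 kb, since none can lie beyond it.

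The first signal varied along the same course. In sperm its median on the log2(signal + 1) scale was 4.55 in the outermost 0.1 Mb, 4.22 from 1 to 2 Mb and 4.03 from 3 to 5 Mb. The shared signal of sperm was 4.11 in the outermost 0.1 Mb, 4.11 from 1 to 2 Mb and 4.06 from 3 to 5 Mb. In haploid ESC the first signal was 4.55, 4.45 and 4.33 at these distances. The second-pair contrast of sperm peaked at 0.072 between 0.5 and 1 Mb and was 0.043 in the outermost 0.1 Mb. In haploid ESC it peaked at 0.065 between 1 and 2 Mb.

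The outermost 0.1 Mb of single ends varied widely. At 38 ends with at least 10 sites there, the median first-pair contrast was lower than in the remainder of the same margin at 28 ends in sperm and at 20 in haploid ESC. The median difference over these ends was -0.24 in sperm and -0.04 in haploid ESC. In sperm the differences ran from -1.88 at the high-position end of chromosome 8 to 0.53 at the low-position end of chromosome 16. In haploid ESC they ran from -0.96 at the low-position end of chromosome 12 to 1.27 at the low-position end of chromosome 8, where 14 sites stand in the outermost 0.1 Mb. The pooled value of sperm thus rests on some ends and not on all of them. As an unweighted median over single ends, the contrast of sperm was -0.26 in the outermost 0.1 Mb. It was -0.18 from 0.1 to 0.25 Mb and -0.31 from 0.25 to 0.5 Mb.

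Between ends, the first-pair contrast relative to the rest of the chromosome was lower at 36 of 40 ends in haploid ESC and at 33 in sperm. At 31 ends it was lower in both and at 2 it was higher in both. Over the 40 ends these differences were -0.17 ± 0.16 in haploid ESC and -0.15 ± 0.18 in sperm (mean and SD over ends). Over the ends the differences of the cell types were correlated with r = 0.50 and rho = 0.53. This is a description over 40 ends that share 6 libraries and lie in pairs on 20 chromosomes. The values of single ends were not weighted on neighbours. Pooled over ends and weighted on sites within 10 kb, the difference was 0.037 in haploid ESC and 0.00095 in sperm.

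The lowest values in haploid ESC were -0.53 at the low-position end of chromosome 5, -0.49 at the high-position end of chromosome 2, -0.43 at the low-position end of chromosome 18 and -0.40 at the high-position end of chromosome 17. At the low-position end of chromosome 5 the median first signal was 21.5 against 16.4 in the rest of the chromosome, and the shared signal 17.4 against 18.5. Sperm did not share this value: its difference there was -0.10, with a first signal of 15.3 against 16.8 and a shared signal of 16.3 against 19.0. This end also had the highest density ratio of the 40, at 4.09.

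In sperm the lowest values were -0.64 at the high-position end of chromosome 5, -0.54 at the low-position end of chromosome 17, -0.52 at the high-position end of chromosome 2 and -0.42 at the high-position end of chromosome 6. At the high-position end of chromosome 5 the median first signal of sperm was 21.6 against 16.8, and the shared signal 15.4 against 19.0. Haploid ESC had a first signal of 16.5 there against 16.4 in the rest, a shared signal of 16.0 against 18.5 and a difference of -0.19. The ends of chromosome 5 thus stood in opposite order in the cell types. The high-position end of chromosome 2 was among the lowest in both, with shared signals of 15.8 against 18.7 in haploid ESC and 12.3 against 18.0 in sperm.

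The highest values in haploid ESC included the sparse ends of chromosomes 12 and 2, but not that of chromosome 7, at -0.20. The low-position ends of chromosomes 12, 9 and 2 had differences of 0.20, 0.16 and 0.14, and the high-position end of chromosome 1 had 0.03. The same ends had differences of 0.10, -0.18, -0.25 and 0.04 in sperm. The highest in sperm were 0.10 at the low-position end of chromosome 12, 0.07 and 0.06 at the high-position and low-position ends of chromosome 4, and 0.06 at the high-position end of chromosome 16. Over the 40 ends the difference in haploid ESC was correlated with the density ratio with r = -0.53 and rho = -0.49. In sperm the correlation was r = 0.09 and rho = 0.09.

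**Figure D3:**
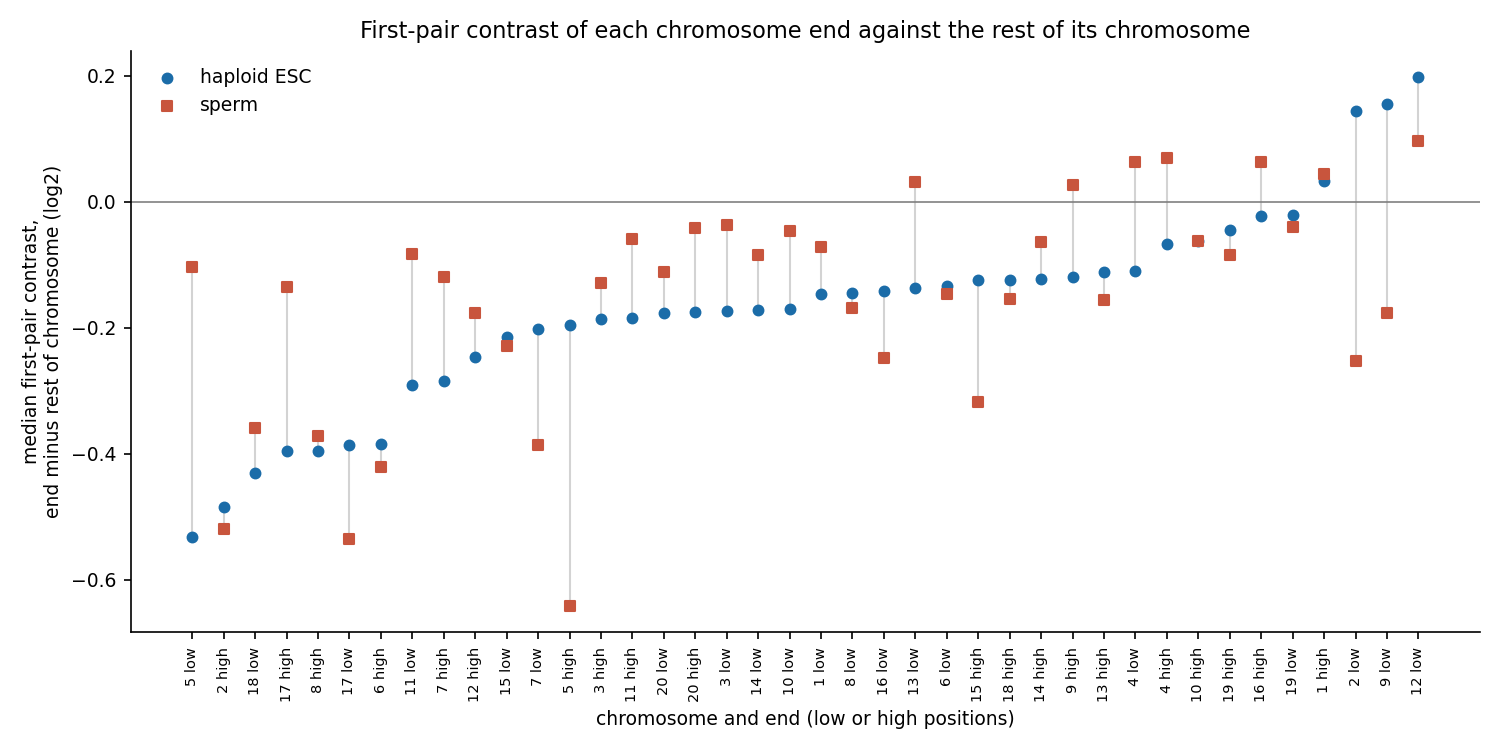
Median first-pair contrast of each of the 40 chromosome ends minus that of the rest of its chromosome (log2), in haploid ESC and sperm, with ends ordered by the value of haploid ESC. Values below 0 are lower at the end, without weighting on neighbours: 36 ends in haploid ESC and 33 in sperm. The grey line joins both values of an end and is long at both ends of chromosome 5 and at the low-position ends of chromosomes 2 and 9.

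Among sites with the same number of neighbours within 1 kb, ends differed from the rest in how the contrast changed with that number. These classes do not hold the wider density alike. Over all sites, the median number of neighbours within 10 kb was 28 at ends and 12 in the rest. End sites with no other site within 1 kb had a lower first-pair contrast than such sites of the rest, and end sites with many had a higher one. Sites with no neighbour had a median of 0.15 at ends and 0.42 in the rest of haploid ESC, and of 0.24 and 0.65 in sperm. The ends were lower on 19 of 20 chromosomes in each table. Sites with 5 to 8 neighbours had a median of -0.05 at ends and -0.50 in the rest of haploid ESC, and of 0.19 and -0.29 in sperm, higher at ends on 20 of 20 chromosomes in each. With 9 or more neighbours the medians were 0.43 at ends and 0.16 in the rest of haploid ESC, and 0.79 and 0.17 in sperm. That class held 1429 end sites, and the ends were higher on 14 chromosomes and lower on 5 in each table. These classes were chosen after the data were seen.

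The crossing of ends and rest lay between 2 and 3 neighbours. With 2 neighbours the medians were -0.38 and -0.30 in haploid ESC and -0.324 and -0.322 in sperm. With 3 or 4 they were -0.38 and -0.51 in haploid ESC and -0.24 and -0.43 in sperm. At sites with no neighbour the shared signal of sperm had a median of 4.19 at ends and 4.46 in the rest on the log2(signal + 1) scale, and the first signal 4.01 and 3.93. Of the 3 signals, the first differed most at sites with 5 to 8 neighbours. Its median on the log2(signal + 1) scale was 4.40 at ends and 4.65 in the rest of haploid ESC, and 4.23 and 4.51 in sperm. The shared signal there was 4.41 and 4.34 in haploid ESC and 4.40 and 4.32 in sperm. Such dense stretches are where CpG islands lie, and whether the stretches at ends are islands was not tested.

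Counted within 10 kb, ends and rest lay closer together. At sites with 21 to 40 neighbours, 53.1% of end sites and 19.9% of the rest, the medians were -0.32 at ends and -0.40 in the rest of haploid ESC, and -0.17 and -0.22 in sperm. With 41 or more they were -0.146 and -0.135 in haploid ESC and 0.139 and 0.143 in sperm. Sperm differed most in sparse stretches. With at most 3 neighbours within 10 kb, which held 572 end sites, its medians were 0.52 at ends and 0.88 in the rest, and those of haploid ESC 0.55 and 0.61. The second-pair contrast of sperm was higher at ends in each of the 6 classes within 10 kb, by 0.016 to 0.026. In haploid ESC it was lower at ends with 7 to 10 neighbours, by a difference of -0.0039, and higher in the other 5 classes, by 0.0017 to 0.027. Within 1 kb it was higher at ends in each of 6 classes, by 0.0079 to 0.028 in haploid ESC and by 0.021 to 0.050 in sperm.

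**Figure D4:**
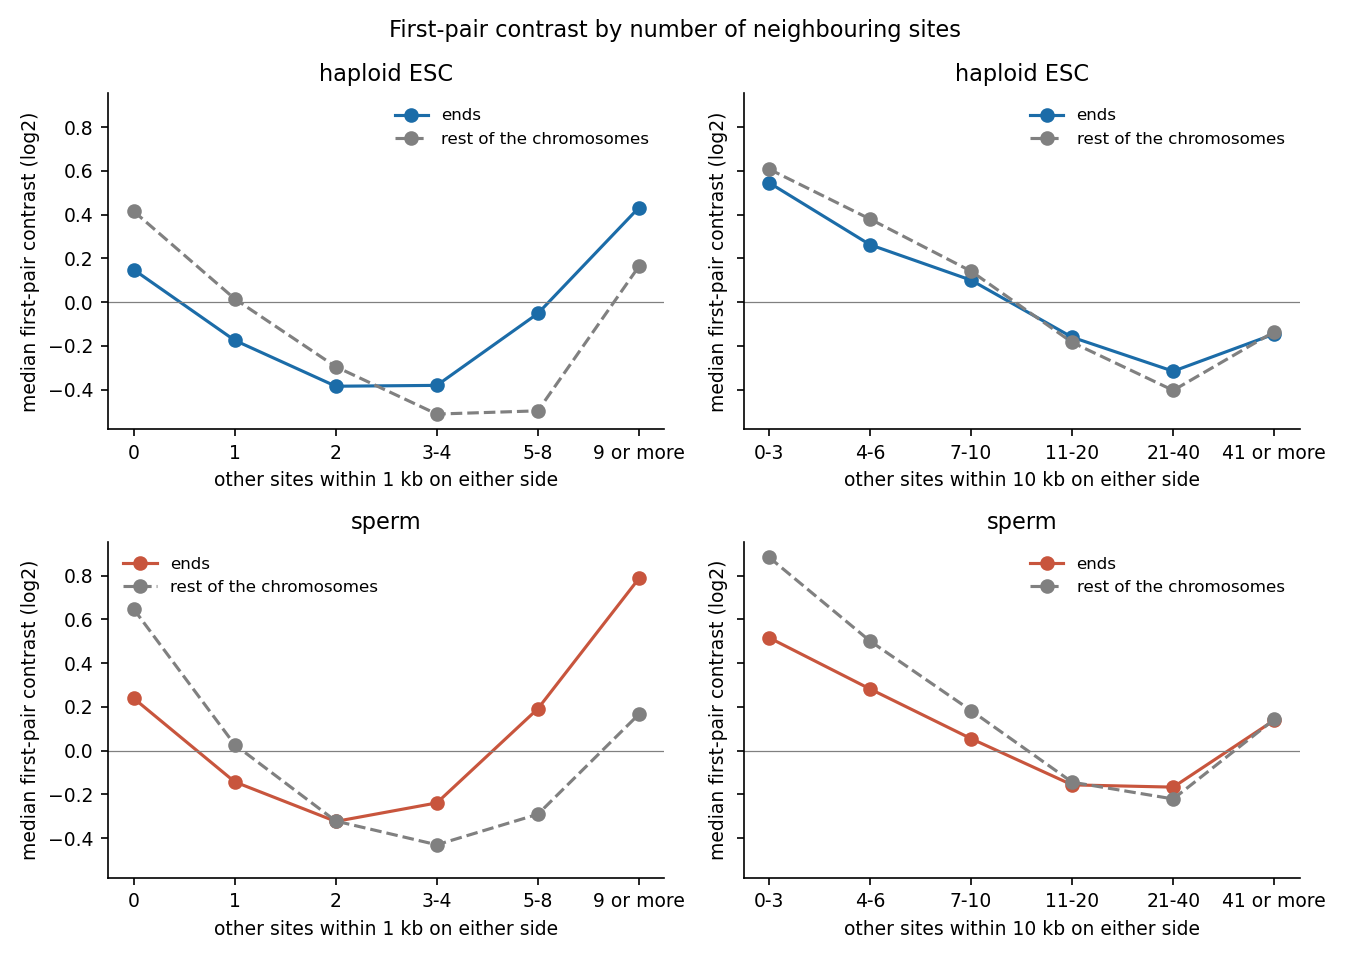
Median first-pair contrast (log2) of end sites and of the rest, by the number of other listed sites within 1 kb (left) or 10 kb (right) on either side, in haploid ESC (top) and sperm (bottom). Within 1 kb the lines cross: at 0 neighbours the ends are lower (0.15 against 0.42 in haploid ESC), at 5 to 8 they are higher (-0.05 against -0.50). Within 10 kb they run close together in haploid ESC.

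Windows of 100 kb show where the first-pair contrasts of the 2 tables lay farthest apart within the margins. There were 1131 windows with at least 20 sites listed in both tables. The difference of mean first-pair contrast, haploid ESC minus sperm, had a median of -0.03, with 5% of windows below -0.53 and 5% above 0.66. It assumes that the same digests form the pair in both tables. The difference exceeded 1 in 12 windows and was below -1 in 2. Of the 35 outermost windows, 22 had a positive difference, with a median of 0.17. Of the other 1096, 503 had one, with a median of -0.04. Positions are those written in the tables.

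The largest positive difference, 1.64, was on chromosome 9 between the sites 501505 and 596343, over 57 sites. The mean contrast there was 0.43 in haploid ESC and -1.21 in sperm, and it was higher in haploid ESC at 51 of the 57 sites. Within the table of haploid ESC the median first signal was 35.2 and the shared signal 28.1. Within that of sperm they were 103 and 44.2. The site at 572480 had the largest difference of this window. Its first signal, shared signal and the third signal were 1.55, 22.2 and 4.89 in haploid ESC and 80.7, 4.97 and 12.03 in sperm. Its adjusted p-values for the first pair were 5.8e-17 and 3.3e-28 in the authors' deposited tables, in opposite directions.

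The next 3 windows were the outermost 100 kb of their chromosomes. On chromosome 8, between 150050278 and 150150205, the difference was 1.45 over 46 sites, with means of -0.34 in haploid ESC and -1.79 in sperm. The median first signal was 20.5 beside a shared signal of 18.9 in haploid ESC, and 81.2 beside 13.3 in sperm. At 150131649 the signals were 8.29, 11.9 and 17.6 in haploid ESC, with an adjusted p of 0.13 in the authors' deposited table. In sperm they were 121, 6.72 and 12.9, with an adjusted p of 6.5e-42 in the authors' deposited table. On chromosome 5, between 183970600 and 184068300, the difference was 1.29 over 77 sites, with a median first signal of 39.5 beside a shared signal of 21.8 in haploid ESC, and of 98.2 beside 19.97 in sperm. On chromosome 12, between 182 and 72327, it was 1.22 over 29 sites, with a median first signal of 20.97 beside a shared signal of 16.99 in haploid ESC, and of 42.03 beside 19.8 in sperm. In these 3 windows the median first signal exceeded the shared signal in each table. The fifth window was also at the high-position end of chromosome 5, between 183569571 and 183662365, with a difference of 1.21 over 75 sites.

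In the opposite direction, the largest difference was -1.38 on chromosome 3 between 2001549 and 2099592, over 87 sites. The mean contrast was -1.06 in haploid ESC and 0.32 in sperm, and it was higher in haploid ESC at 16 of the 87 sites. The median first signal was 40.9 beside a shared signal of 18.2 in haploid ESC, and 15.9 beside 18.2 in sperm. At 2026516 the signals were 33.8, 9.71 and 17.1 in haploid ESC and 3.09, 38.6 and 45.5 in sperm, with adjusted p-values of 2.8e-06 and 4.1e-27 for the first pair in the authors' deposited tables. On chromosome 18, between 1200059 and 1299815, the difference was -1.11 over 157 sites, with a median first signal of 38.1 beside a shared signal of 16.5 in haploid ESC, and of 17.8 beside 15.4 in sperm. The others lay on chromosome 11 between 100673 and 199673 (-0.92, 145 sites), on chromosome 19 between 100443 and 194996 (-0.90, 151 sites) and on chromosome 10 between 1376175 and 1399306 (-0.84, 53 sites). Within the table of haploid ESC the median first signal of these 5 windows lay between 31.6 and 52.2 and the shared signal between 16.5 and 23.5. Within that of sperm they lay between 15.9 and 22.8 and between 15.4 and 19.4. The windows were chosen by this difference, so these values describe them. No gene is named for any window, since annotation matching the tables was not used here.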

How the data were processed

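HMST-Seq tags of 3 libraries per cell type were sequenced as single-end 50 bp reads, per the labels' protocols. The authors deposited 1 headerless table for each cell type, which the labels name beside its libraries. Its signal columns hold non-whole values above 0, never below 0.59, on the authors' scale. Its p-values are the authors' own, and the deposited adjusted p-value of the second pair is treated as a score because it reaches 1.03. Aligner, counting, normalization, filters and depth are not stated in these sources. The submitters' processing notes name hg19, a human build, whereas the autosomes here are numbered to 20, so the build is unknown and no sequence was read.

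Sites were joined on chromosome and position. Medians of contrasts (pseudocount 1) and shares of calls were compared between ends and rest with Python 3.11.15, numpy 2.4.6 and pandas 2.3.3, and the code was tested on simulated data. With 1 library per digest no test was made. Weighted values give the rest, pooled over all chromosomes, the ends' distribution over 20 classes, and do not compare within a chromosome. The 4 highest and 4 lowest ends per table, the 3 densest and 3 sparsest ends, and the 5 leading 100 kb windows per direction are named. Sites within windows were picked after their values were seen. Members and choices were made with earlier results of these data known.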

Additional observations from a re-analysis of the deposited data

Results flagged for a closer look

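First-pair calls pointed in opposite directions in the cell types. In the authors' deposited table for haploid ESC, the share of called sites was higher at ends than in the rest by 1.92 percentage points, and in that of sperm it was lower, by -0.56 points. Whether the cell types differ in this was not tested, since each digest has 1 library. Chromosomes were mixed in sperm, with the ends higher on 8 and lower on 12 of 20, against 18 and 2 in haploid ESC. Beside sites of the rest with as many neighbours within 10 kb, both values changed sign, to -0.32 points in haploid ESC and 0.79 in sperm. That of sperm was also 0.79 with a margin of 1 Mb.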

How the results depend on the processing

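Under the alternative settings, 61 values moved by less than 1 SD over chromosomes or, for shares, within the 95% interval of the difference, 29 moved further and 11 reversed. The cause of these changes was not tested. Site density, both contrasts and both listing shares kept their direction with margins of 1 and 5 Mb, equal weight per chromosome and either kind of end. The contrasts alone were also run with a pseudocount of 10 and with a minimum sum of 10, and kept their direction there. Both contrasts and calls were run on shared sites only, and kept their direction there too. No paired analysis was possible because each digest has 1 library. Depth is unknown, so what it limits cannot be given.

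With the rest weighted on sites within 10 kb, an alternative chosen after the data were seen, the first-pair contrast was 0.037 in haploid ESC and 0.00095 in sperm, the second-pair contrast 0.0020 and 0.021. The first signal was then -0.027 and 0.035, the shared signal 0.0043 and 0.030, and the third signal 0.0052 and 0.052. First-pair calls in the authors' deposited tables were then -0.32 points in haploid ESC and 0.79 in sperm, and second-pair calls -0.051 and 0.66. The share listed in haploid ESC alone was -0.22 points and that in sperm alone 0.57. Weighted on the nearest site, the first-pair contrast was -0.077 and 0.025, first-pair calls of haploid ESC 1.39 points in the authors' deposited table, and second-pair calls 0.91 and 1.05. With a pseudocount of 10 the second-pair contrast was 0.036 and 0.042.

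First-pair calls of haploid ESC in the authors' deposited table were 2.49 points with 1 Mb, 1.23 with 5 Mb, 1.58 with equal weight per chromosome, 2.79 at low-position and 1.09 at high-position ends. Those of sperm were 0.79 with 1 Mb, -1.30 with 5 Mb, 0.034 at low-position and -1.12 at high-position ends. Second-pair calls of haploid ESC were 0.88 with 5 Mb, 1.71 at low-position and 0.56 at high-position ends, and those of sperm 1.66 with 1 Mb and 0.73 with 5 Mb. Below 0.001 the first-pair values were 2.52 and -1.61, and the second-pair values 0.51 and 0.48. The share listed in haploid ESC alone was -0.88 points with 5 Mb.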
